A study of Mus musculus with 8 samples.

Results

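Cycling epithelial cells of the mouse tongue were taken from all 8 libraries and were chosen by their own counts of keratin, Ptprc and cycle genes. A cell had to hold 1000 to 5500 genes, at most 30000 unique molecular identifiers (UMIs, counted molecules) and at most 7% mitochondrial UMIs. It had no UMI of the leukocyte gene Ptprc, and the keratins Krt5, Krt14, Krt15, Krt13 and Krt6a together made at least 0.5% of its UMIs. At least 4 of the 6 cycle genes Mki67, Top2a, Cenpf, Nusap1, Aspm and Kif11 had 1 or more UMI. The rule found 2789 cells among 12957 epithelial cells that met its other terms, 25199 cells within the cell limits and 42550 cells in all.

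The mice carried Krt14-CreERT and LSL-rtTA, and this genotype alone was group N. Group E added tetON_E6-E7, the 2 oncogenes of human papillomavirus, group Y added tetON_YAP1S127A, an active form of the coactivator YAP, and group EY added both. The study's methods also give every group an H2B-GFP reporter, tamoxifen into the tongue and doxycycline chow, so the controls received the same agents. Each group had 2 libraries, collected 15 days after induction from young adult littermates and sorted for viability and size. The transgenes act only in descendants of Krt14-expressing cells that recombined, and a cell that did not recombine cannot be told apart here. Replicate numbers only name libraries, and 1 N library (N2) carries 2 animal numbers in its title, so it may pool animals.

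Division in a squamous epithelium such as that of the tongue takes place mainly in the basal layer, whose progenitors express p63, Krt5 and Krt14, and cells leave the cycle as they differentiate. Entry into S phase is driven by cyclin D and cyclin E kinases that inactivate RB and free E2F factors to transcribe DNA replication genes. A later set of genes for mitosis is transcribed in G2 through CCAAT boxes and a cell cycle homology region (CHR). The viral protein E7 binds RB and E6 directs p53 to degradation, while YAP acts with TEAD factors on genes of growth and the cytoskeleton.

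The sequences below show the start-site side of both waves. They are the 250 bases before the RefSeq start (GRCm38.p6, read 5′ to 3′ on the gene's strand) for 2 replication genes, 2 mitosis genes and 1 gene of the selection rule, taken as those with the highest mean level in cycling cells that had an entry. Capitals mark matches, on either strand, to CCAAT and to the CHR core TTTGAA, which read as ATTGG and TTCAAA on the other strand.
Dut, chr2:125247265-125247514, plus strand: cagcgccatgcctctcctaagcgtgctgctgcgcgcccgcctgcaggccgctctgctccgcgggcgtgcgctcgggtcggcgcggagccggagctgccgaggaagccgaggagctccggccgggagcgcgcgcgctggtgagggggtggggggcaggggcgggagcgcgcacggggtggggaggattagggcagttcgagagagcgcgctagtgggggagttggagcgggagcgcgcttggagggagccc
Pcna, chr2:132253181-132253430, minus strand: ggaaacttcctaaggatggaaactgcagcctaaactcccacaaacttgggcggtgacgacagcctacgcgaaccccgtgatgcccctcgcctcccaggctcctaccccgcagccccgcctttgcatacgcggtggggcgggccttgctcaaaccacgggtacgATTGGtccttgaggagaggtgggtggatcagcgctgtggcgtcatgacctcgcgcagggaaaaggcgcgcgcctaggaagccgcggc
Ube2c, chr2:164769679-164769928, plus strand: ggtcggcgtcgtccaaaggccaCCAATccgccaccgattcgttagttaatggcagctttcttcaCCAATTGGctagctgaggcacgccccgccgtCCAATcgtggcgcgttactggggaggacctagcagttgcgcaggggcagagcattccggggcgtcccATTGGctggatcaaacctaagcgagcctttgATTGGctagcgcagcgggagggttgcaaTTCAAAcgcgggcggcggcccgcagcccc
Cks2, chr13:51644982-51645231, plus strand: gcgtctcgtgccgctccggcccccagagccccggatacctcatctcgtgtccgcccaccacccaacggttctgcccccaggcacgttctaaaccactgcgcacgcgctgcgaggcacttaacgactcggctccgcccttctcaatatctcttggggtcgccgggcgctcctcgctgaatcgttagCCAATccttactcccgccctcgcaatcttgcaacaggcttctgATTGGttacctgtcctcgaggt
Top2a, chr11:99024190-99024439, minus strand: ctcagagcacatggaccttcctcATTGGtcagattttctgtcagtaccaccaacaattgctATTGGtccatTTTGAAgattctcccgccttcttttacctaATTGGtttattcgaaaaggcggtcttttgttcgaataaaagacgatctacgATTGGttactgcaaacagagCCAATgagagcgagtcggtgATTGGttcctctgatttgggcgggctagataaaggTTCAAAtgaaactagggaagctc

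Dut encodes the dUTPase that keeps uracil out of DNA and Pcna the sliding clamp of DNA polymerase. Their windows held no CHR core, and that of Pcna held 1 CCAAT match. Ube2c, a ubiquitin-conjugating enzyme of the anaphase-promoting complex, had 6 CCAAT matches, and the 2 that make its CCAATTGG run overlap. Cks2, a subunit of cyclin-dependent kinases, had 2, and Top2a, the topoisomerase that untangles chromosomes, had 6. The CHR core lay 29 bases before the start of Ube2c and 23 bases before that of Top2a, which had another 179 bases before it. The E2F sequences TTCCCGC and TTGGCGC were found in none of the 5 windows on either strand.

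Over the lists the motifs were unevenly spread. CCAAT was present in 38 of 48 windows of 43 G2/M and mitosis genes (79.2%), in 20 of 36 windows of 31 G1/S and DNA replication genes (55.6%) and in 33.8% of all 32851 windows. The CHR core was present in 33.3% of the mitosis windows, 8.33% of the replication windows and 16% of all. TTCCCGC was present in 33.3% of the replication windows, 0 of 48 mitosis windows and 3.82% of all, and TTGGCGC in 11.1%, 8.33% and 1.97%. A match is a run of letters and not a site shown to be bound.

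The cells chosen carried the 6 genes unevenly. Mki67 had a UMI in 99.0% of cycling cells, Top2a in 97.1%, Cenpf in 93.5%, Kif11 in 76.6%, Nusap1 in 76.4% and Aspm in 68.5%. Just inside the threshold, the 853 cells with 4 of the genes held a median of 13 UMIs of them and a median of 18140 UMIs in all. Just outside, the 1121 cells with 3 held 7 and 16575, while the 1159 cells with all 6 held 60 and 20708. Detection depends on depth, and the median was 19896 UMIs in cycling and 14062 in other epithelial cells. Among 1597 neutrophils gated on S100a8, Csf3r and Ptprc, which should not divide, 17 (1.06%) reached 4 of the genes at a median of 9251 UMIs. The rate ran from 0% (N2 and E2) to 25%, with 2 of 8 in N1 and 4 of 16 in E1. These cells were shallower than cycling cells, so the rate sets no bound on false detection.

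The label was set beside genes outside the rule. Summed over a library, the 52 genes of the G2/M and mitosis list stood 2.05-fold (EY2) to 12.3-fold (E2) higher in cycling than in other epithelial cells, and 6.64-fold or more in each N, E and Y library. The rule genes belong to the cycle too, so a rise of this list was largely set by the selection. For the G1/S and DNA replication list the ratio was 4.11 in N1, but 1.09 in EY1, 1.04 in E2 and 0.90 in EY2, where it set cycling cells little apart. Epithelial genes were present in every library, with Epcam at 223 to 397 CPM (UMIs of a gene scaled to equal library totals) and Cdh1 at 53.2 to 116. Of the 10 fibroblast and vessel markers Cdh5, Kdr and Rgs5 were at 0, but the list summed to 895 to 1439.6 CPM in N1, N2, E1 and Y1, nearly all from Dcn (a proteoglycan of connective tissue). The share of cycling cells that held all 6 genes was 60.7% and 23.6% in N, 48.7% and 22.2% in E, 50.6% and 43.9% in Y, and 17.6% and 21.2% in EY.

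The libraries contributed unequally, with 619 and 55 cycling cells for N, 784 and 63 for E, 176 and 237 for Y, and 17 and 838 for EY. EY1 was under the minimum of 20 cells and entered no main fit, so EY rests on EY2 there. The upper limits on genes and UMIs removed 1679 cells that met the rest of the rule, among them 191 of 208 in EY1, 163 of 218 in N2 and 40 of 659 in N1. Lead results are therefore also given without these limits, where EY1 is in the fits. Xist was at 742 CPM in Y2 and at most 0.0864 CPM elsewhere, so sex differed within Y and was not a term in the fits. UMIs of immune genes were found in 16.0% (N1) to 72.2% (Y1) of cycling cells and in 15.9% to 67.5% of other epithelial cells. No barcode was shared between libraries among cycling cells. The labels name kit version 2 and the study's methods a later one.

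The share of epithelial cells that were cycling addressed whether either transgene moves cells into the cycle. It was 17.96% in N1 and 13.3% in N2, 19.3% in E1 and 11.4% in E2, 13.7% in Y1 and 23.7% in Y2, and 10.0% in EY1 and 41.3% in EY2. EY held both the lowest and the highest share, and the other groups overlapped. With the YAP transgene the mean was 22.2% ± 14.03 (SD, n = 4) and without it 15.5% ± 3.77 (n = 4), a difference of 6.68 points (exact two-sided permutation test, p = 0.457, adjusted p = 0.857 over 2 tests). With E6-E7 it was 20.5% ± 14.5 and without it 17.1% ± 4.85 (difference 3.38 points, exact permutation p = 0.857, adjusted 0.857). The smallest p this design allows is 0.0286.

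Without the upper limits the order changed. The shares became 18.7% and 29.4% in N, 20.9% and 16.3% in E, 27.0% and 39.8% in Y, and 43.2% and 49.2% in EY. Both EY libraries then stood above the other 6, and the YAP difference was 18.5 points (exact permutation p = 0.0571, n = 4 and 4), while that of E6-E7 was 3.66 points (p = 0.714). With the limits kept, cells thinned to 5000 UMIs gave a YAP difference of 6.51 points at 2 or more marker genes and -0.287 points at 4 or more. With the limits dropped, thinned cells gave 14.9 points at 2 or more (exact permutation p = 0.0857, n = 4 and 4), a setting chosen after the data were seen. None of these passed. Without EY2 the YAP difference was 0.292 points and the E6-E7 difference -3.56 points.

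**Figure D1:**
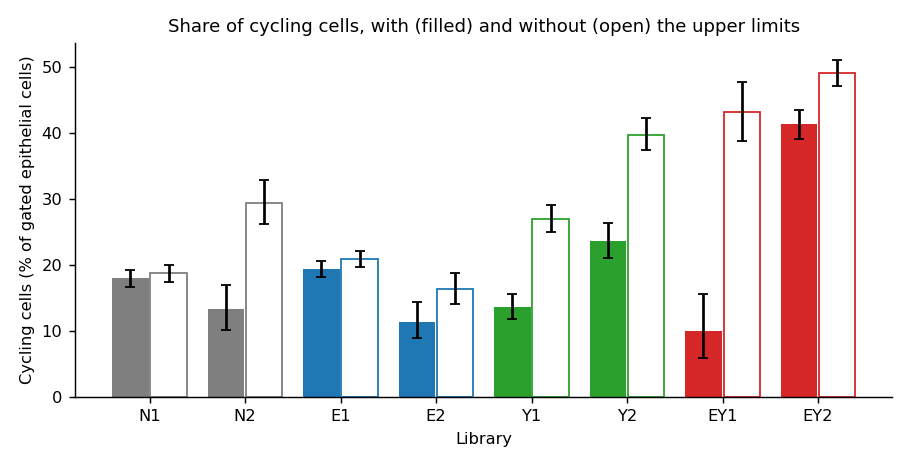
Share of cycling cells among gated epithelial cells (%, y axis) in each library (x axis), with the upper limits (filled bars) and without them (open bars), where whiskers are exact 95% binomial intervals, for counting error only. EY1 moves from 10.0% to 43.2% when the limits are dropped.

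Within cycling cells no gene of the G1/S and DNA replication or G2/M and mitosis lists passed for either transgene (edgeR's quasi-likelihood test, Benjamini-Hochberg adjusted p under 0.05, used throughout). Of 42 tested G1/S and DNA replication genes, 0 passed for the YAP effect, where 4.56% of all 11873 genes tested were called, and 0 for the E6-E7 effect, where 0.354% were called. Of 52 tested G2/M and mitosis genes, 0 passed in either. The medians over the replication list were 0.42 (YAP) and 0.06 (E6-E7) on the log2 scale, and over the mitosis list -0.25 and -0.05, with medians over all genes of -0.01 and -0.00. With an unadjusted p under 0.05, 2974 genes of the whole table passed for YAP and 1131 for E6-E7. Without the upper limits the YAP fit called 37 of the 52 mitosis genes lower and 0 higher, against 21.2% and 23.4% of all genes. The median of the mitosis list was then -0.45 against -0.01 over all genes, and 50 of the 52 differences were negative. Of the replication list 11 genes were called higher and 4 lower, at a median of 0.09. The share of all genes called also rose, from 4.56% with the limits to 44.5% without them. The E6-E7 fit then called 0.125% of all genes and 0 of either list.

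Levels of the 6 rule genes are a description. Top2a was at 1015 and 306 CPM in N, 885 and 235 in E, 759 and 686 in Y, 327 in EY1 and 425 in EY2. Mki67, a protein that coats mitotic chromosomes, was at 673 and 460 in N, 653 and 549 in E, 550 and 518.5 in Y, 372 in EY1 and 253 in EY2. EY2 was the lowest library for Mki67, Cenpf, Nusap1 and Aspm.

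Replication genes stood less far above other epithelial cells where E6-E7 was present. The summed G1/S and DNA replication list in other epithelial cells was at 671 and 474 CPM in N and 818 and 1377 in Y, but at 2121 and 1188.5 in E and 1763 and 3113 in EY. In cycling cells it was at 2762 and 1657 in N, 3226 and 1241 in E, 2545 and 3393 in Y, and 1918 and 2812 in EY. Cycling cells thus stood 3.50 to 4.11-fold above other cells in N and 2.46 to 3.11-fold in Y, against 1.04 to 1.52-fold in E and 0.90 to 1.09-fold in EY. In EY2 the level was lower in cycling than in other cells. E2 was the lowest library in cycling cells and lay below Y2 in other cells, so E and Y overlapped there. Without the upper limits the level in cycling cells was 3038 in E2 and 2739 in N2, so the ratios of these libraries rest on the limits.

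**Figure D2:**
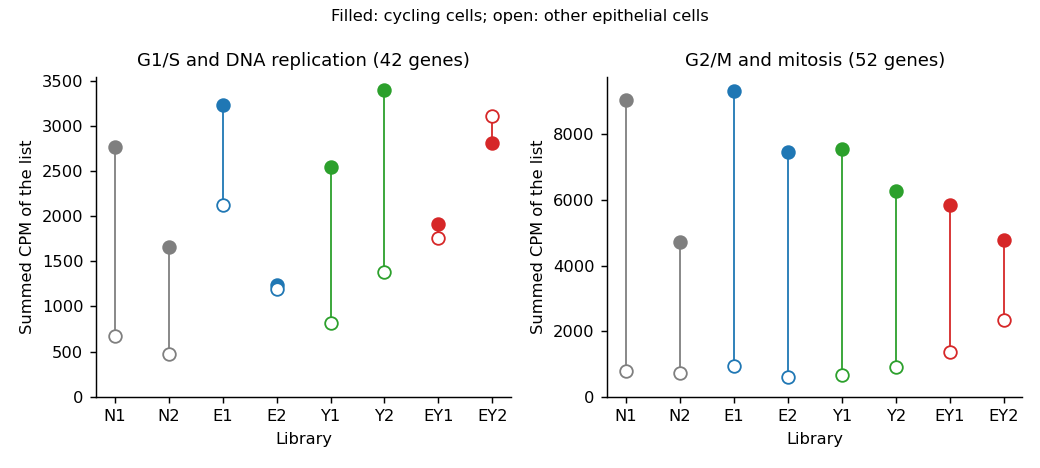
Summed CPM (y axis) of the 42 G1/S and DNA replication genes and the 52 G2/M and mitosis genes in each library (x axis), in cycling cells (filled) and other epithelial cells (open). The points of the replication list lie close together in E2, EY1 and EY2, and those of the mitosis list are apart in all 8 libraries.

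This was tested as the E6-E7 effect in cycling cells minus that in other epithelial cells, with each library as its own block. Of 13934 genes, 250 were called (1.79%), 65 higher (0.466%) and 185 lower (1.33%). Of the 42 replication genes 39 were called lower and 0 higher, with a median of -1.68 on the log2 scale against 0.04 over all genes. Of the 3 others, Ung was at -0.85 and Usp1 at -0.74. Leaving out any 1 of the 7 libraries left 31 (EY2) to 40 of the 42 called lower, while the count over all genes ran from 94 (EY2) to 402 (N2), with 142 without Y2 and 381 without E1. The rule genes belong to the cycle, so the split of cells is not independent of these lists, and cells short of the threshold can be dividing. Set against other cells with 0 of the 6 genes, 37 of the 42 were called lower (median -1.77), and without the upper limits 40 (median -1.41), where 1.91% of all genes were called lower.

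Rrm2, the ribonucleotide reductase subunit that supplies dNTPs, shows the pattern in part. It was also called in the YAP term given below, and in other cells E2 lay between Y1 and Y2. In other epithelial cells it was at 8.71 and 3.59 CPM in N and 14.55 and 31.1 in Y, against 42.2 and 14.8 in E and 84.8 and 162 in EY. In cycling cells it was at 137 and 71.7 in N, 188 and 46.8 in E, 119.7 and 153 in Y, and 56.5 and 156 in EY. Among other cells both EY libraries lay above the other 6, while among cycling cells the groups overlapped (E6-E7 difference between the classes -2.40 ± 0.22 SE on the log2 scale, adjusted p = 0.000591).

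Ccne1 and Ccne2, the E-type cyclins, moved alike, at -1.89 ± 0.24 (adjusted p = 0.00180) and -2.45 ± 0.30 (adjusted p = 0.00129). Ccne1 in other epithelial cells was at 3.24 and 1.93 CPM in N and 22.7 and 7.765 in E. The replicative helicase genes Mcm2 to Mcm7 were called, from -1.94 (Mcm3) to -1.37 (Mcm2), and Pcna (-1.32 ± 0.18, adjusted p = 0.00230) and Dut (-1.10 ± 0.17, adjusted p = 0.00657), whose promoters are printed above, were among the smaller differences. Of 30 tested genes of RB, E2F, cyclin D and CDK inhibitors 7 were called lower, among them the E2F factors E2f8 (-2.79), E2f7 (-2.27) and E2f1 (-1.55) and the MYB factor Mybl2 (-1.59). Of 23 tested DNA damage response and repair genes 10 were called lower, led by Clspn (-2.42), Exo1 (-2.38) and Brca1 (-2.25), which act at stalled forks and in homologous recombination. Their median was -1.46.

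Of 52 mitosis genes 4 were called in that term, all lower, where 1.33% of all genes were called lower. They were Spc25 of the kinetochore (-2.04), Cdk1, the mitotic kinase (-1.78), Prc1 of the spindle midzone (-1.67) and Hjurp, the centromeric histone chaperone (-1.18). The list's median was -0.90 against 0.04 over all genes, and 51 of the 52 terms were negative. The genes with the largest negative terms under the naming rule, which asks for a minimum level, were Hist1h3b (-3.31), a histone gene of S phase that did not pass without the upper limits (-2.26, adjusted p = 0.115), Fbxo5 (-2.81), an inhibitor of the anaphase-promoting complex, E2f8 (-2.79) and Esco2 (-2.76), a cohesin acetyltransferase. Positive terms included 14 of 36 tested genes of squamous differentiation and 0 negative ones. Krt6b, a keratin of stressed epithelium, was at 31.55 and 17.8 CPM in other N cells and 84.25, 35.5, 70.6 and 219.8 in other cells of E and EY, with 89.6 and 38.2 in those of Y. In cycling cells it was at 1.12 and 1.69 in N, 31.2 and 1.46 in E, 2.56 and 1.06 in Y, and 14.9 and 61.5 in EY. Other cells of Y thus overlapped those of E, and E2 stayed at the N level in cycling cells. The term was 3.08 ± 0.41 (adjusted p = 0.00214) and did not pass without the upper limits (1.60, adjusted p = 0.299). Cnfn (cornifelin) had a positive term too (2.31 ± 0.26, adjusted p = 0.000958). Leaving out 1 library left 4 (EY2) to 20 (N2) squamous genes called higher, with 6 without N1 and 8 without Y2, and without the upper limits 1 of 36 was.

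For YAP the same kind of term called 21 genes (0.151%), 4 higher (0.0287%) and 17 lower (0.122%). The lower ones included Pbk (-2.76), a mitotic kinase, Rad51ap1 (-1.98), Asf1b (-1.81), a histone chaperone, and Rrm2 (-1.76 ± 0.22, adjusted p = 0.0159). Sprr2a3 (3.42 ± 0.27, adjusted p = 0.000476) and Cnfn (2.67 ± 0.35, adjusted p = 0.0159) were higher. Of the mitosis list 0 genes passed, at a median of -1.46, and of the replication list 3 were lower. Without the upper limits 38 mitosis and 22 replication genes were called lower and 0 higher, against 3.05% and 2.56% of all genes, and against cells with 0 of the 6 genes 6 and 0 were. Leaving out 1 library gave 1 (Y2), 4 (EY2), 6 (E1), 8 (E2), 64 (N1) or 239 (Y1) genes in all, so this term rests on single libraries.

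**Figure D3:**
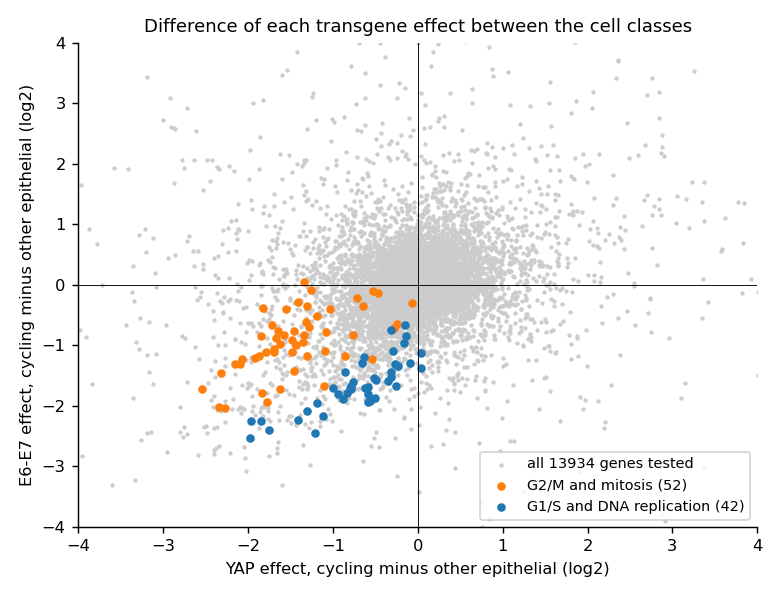
Difference of the YAP effect (x axis) and of the E6-E7 effect (y axis) between cycling and other epithelial cells, on the log2 scale, for all 13934 genes tested (grey; 107 lie outside the plotted range), the 42 replication genes (blue) and the 52 mitosis genes (orange). Replication genes lie low on the y axis and mitosis genes to the left on the x axis.

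The YAP effect in cycling cells compared Y1, Y2 and EY2 with N1, N2, E1 and E2. It called 542 of 11873 genes, 363 higher (3.06%) and 179 lower (1.51%). With EY2 left out no EY library remained, so that fit was the comparison of Y with N. Without EY2 52 were called, without E1 130, without Y2 215, without E2 265, without N1 271 and without Y1 968. Yap1 itself, on chromosome 9 (7931999 to 8004596, minus strand), was at 31.9 and 41.3 CPM in N, 28.2 and 52.6 in E, 219 and 455.0 in Y and 178 in EY2, with 291.5 in EY1. Every library with the transgene lay above every library without it (2.83 ± 0.36 SE, adjusted p = 0.00465), which checks the labels. The counts do not separate transgene from endogenous reads. The viral genes were not among the features, so the E6-E7 labels have no such check.

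Of 23 tested YAP targets 9 were called higher and 1 lower, with a median of 0.93. Amotl2, an angiomotin that binds YAP, was at 6.48, 5.06, 5.61 and 8.77 CPM without the transgene and at 36.6, 91.9 and 66.3 with it (3.38 ± 0.34, adjusted p = 0.00249). F3, the clotting initiator tissue factor, was at 7.26, 7.59, 12.1 and 11.0 against 64.2, 50.6 and 63.6 (2.73 ± 0.20, adjusted p = 0.00102). In both genes the groups were apart, and EY1 lay with the transgenic libraries at 65.4 and 121.9. The stress gene Gadd45b (2.17), the adenosine-producing enzyme Nt5e (1.504), the receptor kinase Axl (1.38), the kinase Lats2 that restrains YAP (1.37), Wwc1 (1.30), Tead1 (1.18) and Crim1 (0.79) were also called higher, and Igfbp3 lower (-1.52). Ccn1 (1.01, adjusted p = 0.124) and Ccn2 (2.64, adjusted p = 0.0613), standard reporters of YAP, did not pass, and Ankrd1 had no UMI. Without EY2 2 targets were called higher, without E1 3, without Y2 4, without N1 5 and without Y1 10, and dropping the upper limits gave 16 higher and 1 lower of 23, where 23.4% of all genes were called higher and 21.2% lower. The YAP effect in cycling minus other epithelial cells called 0 of 23 targets higher and 1 lower (median 0.03), against 0.0287% and 0.122% of all genes.

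Genes of hypoxia and glycolysis rose with YAP, 12 of 28 tested and 0 lower, at a median of 1.16. Egln3, a prolyl hydroxylase induced by HIF that limits it, was at 5.10, 2.53, 4.90 and 2.19 CPM without the transgene and at 50.65, 215.9 and 98.4 with it (4.72 ± 0.51, adjusted p = 0.00310). Slc16a3, the lactate exporter MCT4, was at 1.38, 2.53, 5.04 and 4.39 against 25.6, 54.7 and 124.0 (4.67 ± 0.32, adjusted p = 0.00087). For both genes the groups did not overlap, and Y2 was the higher Y library. The glycolytic enzymes Aldoa (1.82), Pgk1 (1.43), Eno1 (1.24), Pfkl (1.23), Ldha (1.21), Tpi1 (1.19) and Pfkp (1.04) and the mitophagy receptors Bnip3 (2.08) and Bnip3l (0.77) were called higher, as was Ndrg1 (1.36). The summed list was at 4144 and 3875 CPM in N, 4088 and 3531.5 in E, 4948.6 and 7309 in Y, and 9428 and 10541 in EY. Without E1 or EY2 2 genes were called, without Y2 3, without E2 4, without N2 7, and without Y1 19 higher and 1 lower. Dropping the upper limits gave 24 higher and 1 lower, beside the same 23.4% and 21.2% of all genes. In other epithelial cells the summed list was at 4427 and 3891 CPM in N, 4240 and 3764 in E, 5418 and 7788 in Y, and 8271 and 11248 in EY. The YAP effect in cycling minus other epithelial cells called 0 of 28 (median -0.05), against 0.151% of all genes, so the rise was seen in both classes.

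Squamous differentiation genes gave 11 higher and 1 lower of 33 tested, at a median of 0.85. Summed, the list was at 6109 and 6736 CPM in N, 10545 and 7438 in E, 7604 and 9533 in Y, and 13173 and 18781 in EY. Crct1, of the cornified envelope region, held 1 UMI in N1 and 0 in N2, was at 0.426 and 0.731 CPM in E, and at 76.0 and 246 in Y and 232 in EY2 (9.45 ± 0.61, adjusted p = 0.00087). Krt17, a keratin of wounded and neoplastic epithelium, was abundant throughout, at 791 and 728 in N, 1188 and 1061 in E, 1534 and 2025 in Y and 8900.0 in EY2 (1.98 ± 0.32, adjusted p = 0.0141). Cnfn (7.09), Klk12 (5.99), Sprr2d (5.12), Mal (3.03), Ppl (2.81), Sprr1b (2.11), Sbsn (1.84) and Klk10 (1.64) were also called higher. The crosslinking enzyme gene Tgm3 was called lower (-4.06). Sprr3 was called at 6.94, with 0.529 to 3.08 CPM in Y1, Y2 and EY2 and 0 in the other libraries, a level too low for its size to be read. Without EY2 3 were called higher and 0 lower, and without E1 6 higher. The YAP effect in cycling minus other epithelial cells called 1 of 36 higher and 0 lower, against 0.0287% and 0.122% of all genes. Crct1 in other epithelial cells was at 1.32 and 9.66 CPM in N, 2.26 and 40.3 in E, 305 and 1383 in Y and 466 and 864.5 in EY.

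The largest rises by the naming rule were Crct1, Cnfn, Slpi (6.34 ± 0.55, adjusted p = 0.00146), Defb1 (6.33 ± 0.69, adjusted p = 0.00310), Klk12, Sprr2a3 (5.61 ± 0.62, adjusted p = 0.00310), Egln3 and Chil4. Slpi, a protease inhibitor of mucosal secretions, was at 0.864, 0.843, 6.46 and 0 CPM against 27.4, 38.99 and 580.9, and was 3.58-fold higher in Ptprc-positive than in cycling cells. Defb1, an epithelial defensin, was at 2.53 or less against 13.05, 31.4 and 97.4. Chil4, a chitinase-like protein, was high in Y, at 43.0 and 123.7, but at 7.88 in EY2, and did not pass without the upper limits (adjusted p = 0.258).

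Falls were led by Igfbp5, an IGF-binding protein of basal cells, which was at 128 and 89.4 CPM in N and 113 and 148 in E, against 6.91 and 6.70 in Y and 0.246 in EY2 (-5.25 ± 0.79, adjusted p = 0.0106). Has3, a hyaluronan synthase, was at 19.6, 33.7, 26.0 and 46.1 against 0.512, 2.999 and 2.28 (-3.82 ± 0.45, adjusted p = 0.00382). Sfrp1, a secreted WNT antagonist and the 1 basal layer gene of 24 that was called, was at 66.3, 89.4, 67.45 and 102 against 18.2, 17.3 and 9.35 (-2.53 ± 0.29, adjusted p = 0.00348). No library with the transgene reached one without it in these 3 genes. Egfl6 (-3.88), the cysteine protease inhibitor Csta1 (-3.28), Jakmip2 (-3.19) and the chemokine Cxcl14 (-2.90) also fell.

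Among cyclins and their kinases, Ccnd1 (cyclin D1) was at 150.3 and 200.7 CPM in N, 91.3 and 76.0 in E, 242 and 410.0 in Y and 429.8 in EY2 (1.51 ± 0.31, adjusted p = 0.0337), with 205 in EY1. Cdk6, its kinase partner, was at 17.4, 21.1, 16.7 and 3.66 against 36.3, 67.4 and 109 (2.22 ± 0.45, adjusted p = 0.0317). E was the lowest group for both. Ccnd2 (1.06, adjusted p = 0.0688) did not pass. Of 27 tested p53 targets 1 was called higher and 1 lower, against 3.06% and 1.51% of all genes. They were Plk2 (2.09 ± 0.49, adjusted p = 0.0493) and Btg2, an antiproliferative gene (-1.26 ± 0.30, adjusted p = 0.0479). Of 22 genes of partial EMT and invasion Thbs1 (2.21), Pdpn (2.17) and Lgals1 (1.85) were higher and Serpine2 (-2.88) and Tnc (-1.70) lower, against the same shares. The median of that list was -0.03 against -0.01 over all genes.

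**Figure D4:**
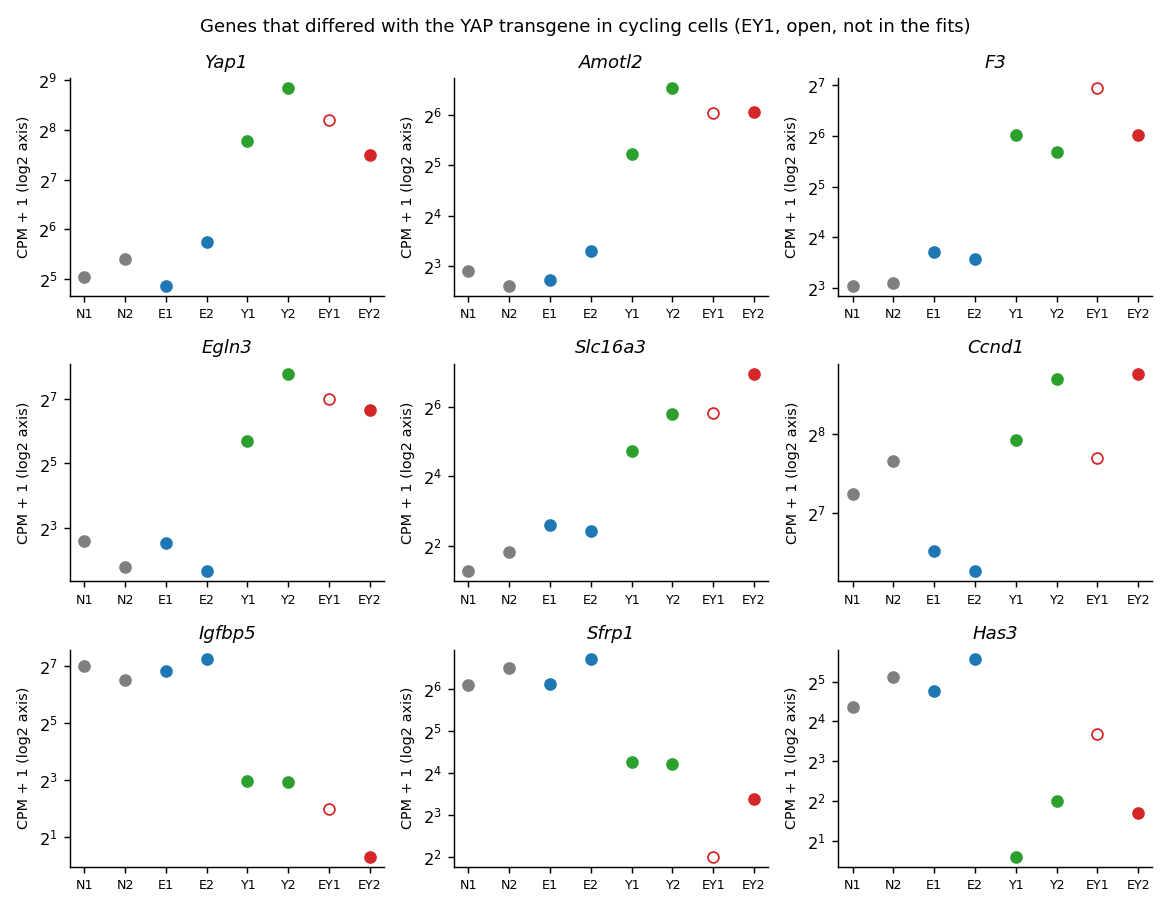
CPM + 1 in cycling cells (log2 y axis, separate for each gene) by library (x axis), with grey N, blue E, green Y and red EY, and EY1 open because it was in no main fit. In each panel the filled Y and EY points lie on 1 side of all N and E points, and for Ccnd1 EY1 lies next to N2.

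Genes that attract granulocytes gave 4 of 14 tested higher with YAP and 0 lower (the growth factor gene Csf3, S100a9, S100a8 and Saa3). S100a8 was at 0.778, 9.28, 18.9 and 5.85 CPM without the transgene and at 116.9, 4.94 and 433 with it, so Y2 overlapped the controls. The 8 neutrophil markers summed to 2.01 and 23.0 in N, 28.5 and 10.7 in E, 247.5 and 13.1 in Y and 657 and 695 in EY, and 3 of 6 tested were called higher. Their defining genes Csf3r and Ly6g stayed at 2.97 CPM or less. The part of free neutrophil RNA in this result was not tested. The 10 fibroblast and vessel markers summed to 21 to 27 CPM in EY and 299.6 to 1439.6 elsewhere, with 0 of 3 tested called for YAP and, without the upper limits, 3 of 4 called lower (median -3.87). The T and NK list (3.05 to 34.8 CPM, 1 of 5 called higher), the myeloid list (20.6 to 100, 2 of 7 higher), the gland or duct list (11.1 to 571, 0 of 4) and the muscle, nerve and pigment list (0 to 5.95, none tested) were low, and red cell genes ran from 1.20 (EY2) to 622 (Y2), 0 of 4 called. Whether these moved any other result was not tested.

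The E6-E7 effect, which without EY2 is the comparison of E with N, set E1, E2 and EY2 against N1, N2, Y1 and Y2. It called 42 genes, 41 higher (0.345%) and 1 lower (0.00842%), and 9 of the 28 tested interferon-stimulated genes were among those higher, at a list median of 2.04 against -0.00 over all genes. The list's summed level was 750.3 and 984 CPM in N, 1527 and 1985 in Y, 4709.6 and 5657.5 in E, and 4622 and 2085 in EY. Every library with E6-E7 exceeded every library without it, EY2 only narrowly. Without the upper limits this did not hold, with Y2 at 1796 and EY2 at 1583. In other epithelial cells it did not hold either, with Y2 at 2054 and EY2 at 1909.

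Rsad2 (viperin), an antiviral enzyme, was at 1.99 and 1.69 CPM in N and 6.91 and 6.88 in Y, against 83.15 and 43.1 in E and 69.0 in EY2 (4.17 ± 0.40, adjusted p = 0.0130), with 142.8 in EY1. Bst2 (tetherin), which holds budding virus at the membrane, was at 29.4, 26.1, 75.7 and 113 against 211, 215.7 and 253 (2.31 ± 0.32, adjusted p = 0.0267). Ifit1 (2.43), Cmpk2 (2.55), Dhx58 (2.28), Isg15 (2.19), Oas1a (2.09), Oasl2 (1.96) and Ifi35 (1.54) were the other 7. In the direct comparison of E with N, 27 genes were called, all higher (0.227%, or 451 at an unadjusted p under 0.05 in either direction), and 15 of 28 interferon-stimulated genes were among them, at a median of 2.61. They included Ifi44 (3.62 ± 0.33, adjusted p = 0.0107), Oas2 (3.27) and the transcription factors Irf7 (2.61) and Stat2 (2.38).

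These calls rest on single libraries. Without N1 or N2 the E against N fit called 0 of the list, without E1 1 and without E2 15, while its median stayed between 2.26 and 2.79 over all such fits. For the E6-E7 effect it was 0 without N2, 1 without N1 or E1, 6 without Y1 and 15 without EY2, and without the upper limits it was 0 of 28, at a median of 1.61, where E against N called 25 higher and 0 lower, against 0.453% and 0.0156% of all genes. With those limits dropped, Y against N called 19 of 28 higher and 0 lower, against 8.54% and 5.7% of all genes, so a rise there was not limited to E6-E7. In other epithelial cells the list stood at 680.5 and 730 in N and 4659 and 4663 in E, and 0 of 28 genes differed in their E6-E7 effect between the classes (median 0.10).

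Zcwpw1, a histone reader best known from meiosis, was at 4.41 and 4.22 CPM in N and 3.07 and 2.12 in Y, against 67.4 and 27.8 in E, 39.9 in EY2 and 32.7 in EY1 (3.70 ± 0.33, adjusted p = 0.0130). It was the 1 gene of the named E6-E7 rises that still passed without the upper limits (3.91, adjusted p = 0.00671). Sprr1b (3.21 ± 0.41, adjusted p = 0.0257), Krt6b (4.597) and the actin bundler Fscn1 (2.83 ± 0.45, adjusted p = 0.0409) also passed, with EY2 the highest library for each. The CDK inhibitor Cdkn1c was at 7.52, 7.59, 8.185 and 6.175 without E6-E7 and at 41.75, 21.9 and 22.4 with it (1.93 ± 0.27, adjusted p = 0.0273). Of 27 tested p53 targets, 23 DNA damage genes and 24 basal layer genes 0 passed. Cdkn1a, the p53-induced inhibitor p21, was at 124.5 and 134.9 in N, 218 and 83.35 in E, 120.2 and 141.5 in Y and 165.5 in EY2 (0.28, adjusted p = 0.764). Mdm2 (0.20, adjusted p = 0.757) and Ccng1 (-0.14, adjusted p = 0.846) did not pass.

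**Figure D5:**
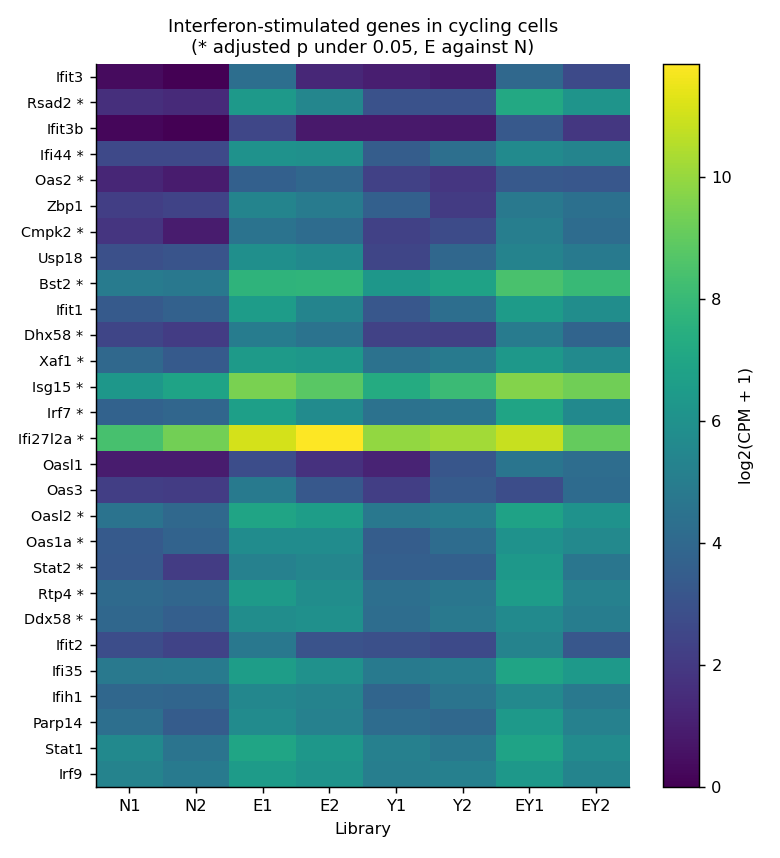
log2(CPM + 1) in cycling cells (colour) of the 28 tested interferon-stimulated genes (rows, ordered by the E against N difference) in each library (columns). The E and EY columns are brighter than the N columns in most rows. Asterisks mark genes called in E against N.

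EY against N joined 1 EY library with 2 N libraries and called 2099 genes (17.7%), 1188 higher (10%) and 911 lower (7.67%). Because EY2 is alone, its spread was taken to be like that of the other groups. Slpi (0.864 and 0.843 CPM in N, 580.9 in EY2; 9.37 ± 0.72, adjusted p = 0.00119) rose, as did Crct1 and Klk12, each with 1 UMI in N, for which the ratio of summed UMIs was 2727 (95% counting interval 489 to 107800) and 914 (164 to 36130). Igfbp5 (-8.71 ± 0.51, adjusted p = 0.000402) and the keratin Krt24, at 78.5 and 158.5 in N and 1.17 in EY2 (-6.61 ± 0.58, adjusted p = 0.00130), fell, and Egfl6 was 200.9-fold lower (interval 55.1 to 1666) on 2 UMIs in EY2. Of 28 interferon-stimulated genes 23 were higher, of 28 hypoxia and glycolysis genes 19, and of 33 squamous genes 19 with 2 lower. In the same comparison 4 of 6 neutrophil markers (median 7.19), 2 of 5 T and NK markers and 2 of 4 gland or duct markers were called higher and 1 of 3 fibroblast and vessel markers lower, and their part in these counts was not tested.

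Of 24 tested basal layer genes, Krt15 of the gate among them, 16 were lower and 8 higher in EY2 than in N. The list's median was -0.41 against -0.02 over all genes. Itga3, an integrin subunit, was higher (1.15). Krt15, a progenitor keratin that is also in the gate, was at 3786 and 4343 CPM in N and 618 in EY2 (-2.72, a description since the rule sums it). Trp63 (p63, the master factor of basal keratinocytes) was at 223 and 319 in N, 186.5 and 303 in E, 175 and 128 in Y, 164 in EY1 and 67.1 in EY2 (-2.00 ± 0.38, adjusted p = 0.0122). Col17a1, a hemidesmosome collagen, was at 291 and 500.1 in N and 85.4 in EY2 (-2.20 ± 0.47, adjusted p = 0.0180), but at 318 in EY1. Sox2 was called lower too (-1.28 ± 0.28, adjusted p = 0.0198), as was Cdkn1b, the inhibitor p27 (-1.04, adjusted p = 0.0303), and Krt16 higher (2.72, adjusted p = 0.0226). The count of all genes called depended on which N library was kept. With EY1 added and no limits 4881 genes (38.1%) were called. Of the 24 basal layer genes 11 were then called lower and 4 higher, against 17.4% and 20.7% of all genes.

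Y against N called 58 genes (0.489%), 43 higher (0.362%) and 15 lower (0.126%). Yap1 (adjusted p = 0.0209), Crct1 (1 UMI in N, ratio 2260, interval 405 to 89320), Chil4 (5.34 ± 0.66, adjusted p = 0.0200), Slpi (5.25 ± 0.69, adjusted p = 0.0233), Amotl2 (3.39), F3 (2.96), Egln3 (4.86) and Slc16a3 (4.70) were higher. Igfbp5 (-4.02 ± 0.28, adjusted p = 0.00322), Has3 (-3.68 ± 0.59, adjusted p = 0.0425), Csta1 (-2.89 ± 0.31, adjusted p = 0.0162) and Sfrp1 (-2.11) were lower. Without N1 or N2 1 gene was called. All 3 comparisons share the N libraries.

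Other genes of the panel did not pass for YAP. The S-phase cyclin gene Ccne2 (0.59 for YAP, adjusted p = 0.569), E2f1 (0.19, 0.768), Mcm2 (0.90, 0.186) and Ccne1 (0.78, 0.361) did not pass (log2 difference and adjusted p), nor did the mitotic genes Plk1 (0.24, 0.711), Ccnb1 (-0.18, 0.711), Cdc20 (-0.47, 0.247) and Foxm1 (0.01, 0.982), Cdkn2c (-0.93, 0.326), or the keratin Krt4 (1.67, 0.128). Cdkn2a was under the count filter, with at most 0.781 CPM.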

How the data were processed

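Single-cell suspensions of mouse tongue epithelium were profiled in 8 droplet libraries, 2 for each genotype. The authors deposited UMI counts per gene and cell, made with Cell Ranger 5.0.0 on mm10 per the file headers and the submitters' processing notes, over 32285 features. The members and gene lists used here were chosen with earlier results of these data known.

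Counts of cycling and of other epithelial cells were summed per library with at least 20 cells of the class, so EY1 was in no main fit. edgeR 4.0.16 (R 4.3.3) fitted YAP and E6-E7 as additive terms, and group means for comparisons with N, after TMM scaling and filterByExpr, with quasi-likelihood tests and Benjamini-Hochberg adjustment at 0.05. A second model joined both classes, with the library as a block and the class by transgene terms tested. Shares were compared by exact two-sided permutation over libraries, with Clopper-Pearson 95% intervals that cover counting error only. CPM are counts relative to all UMIs of the class. Values of single genes were scaled by TMM, over the fitted libraries in cycling cells and over all 8 libraries in other epithelial cells. Those of EY1 in cycling cells and the list sums were not scaled by TMM. Animal numbers in the labels mark separate animals, while replicate numbers were given in accession order.

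Genes named were those called whose groups did not overlap, reaching a 20 CPM mean in the higher group and at most 5 times as much in Ptprc-positive cells, by size of change (8 rises and 6 falls for YAP, 6 rises for E6-E7, 3 each way for comparisons with N, 4 each way for the class terms), plus list members and a panel, and a few of these genes are not reported here. No doublet caller was run, and the limits on genes and UMIs stand in its place. Total UMIs of cycling cells ran from 336219 (EY1) to 17562822 (EY2) per library. On simulated counts with known changes in genes of at least 20 CPM the YAP fit recovered 68% of 2-fold and 100% of 4-fold changes, the E6-E7 fit 59% and 100%. Recovery was 11% and 90% for EY against N, 31% and 97% for Y against N, and 21% and 99% for E against N. The class terms recovered 99% (YAP) and 96% (E6-E7) of 2-fold changes. Alternatives were RLE scaling, DESeq2 1.42.0, no count filter, other marker thresholds, cells without immune UMIs, no minimum of cells, thinned cells and each library left out. Dropping the upper limits together with immune UMIs, or with thinning, was chosen after the data were seen. Figures used matplotlib 3.10.9, and cells were read with scipy 1.17.1 in Python 3.11.15.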

Additional observations from a re-analysis of the deposited data

Results flagged for a closer look

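Both class by transgene terms were drawn out because they test whether an effect differs between cycling and other epithelial cells. The YAP term called 21 genes and the E6-E7 term 250. For YAP the genes singled out by size were Sprr2a3 (3.42) and Cnfn (2.68) with a more positive difference in cycling cells, and Pbk (-2.76), Rad51ap1 (-1.98) and Asf1b (-1.81) with a more negative one, all on the log2 scale. For E6-E7 they were Krt6b (3.08), Cnfn (2.31) and Slpi (1.67), and on the negative side Hist1h3b (-3.31), Fbxo5 (-2.81), E2f8 (-2.79) and Esco2 (-2.76).

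Hbb-bt, a beta-globin gene of red cells, had the largest E6-E7 term by the naming rule (7.06). The 5 red cell genes summed to 24.2 and 83.8 CPM in cycling cells of N, 241 and 28.2 in E, 23.5 and 622 in Y, and 116 and 1.20 in EY, and 3 of them were called in that term. Their part in other results was not tested.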

How the results depend on the processing

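RLE scaling kept every count of calls within 1.5 times its main value. Other settings moved counts of called genes. For YAP (542) there were 1148 by DESeq2, 2155 without a count filter, 5704 without the upper limits, 4459 without those limits and immune UMIs, 1103 at 3 or more markers and 819 with no minimum of cells, and 52 to 968 with a library left out. For E6-E7 (42) these were 142, 608, 16 (no upper limits), 86 and 93, with 75 at 5 or more markers and 0 to 60 with a library left out. EY against N (2099) gave 3190, 4881 and 4151 without the filter, the limits, and limits and immune UMIs, and 237 to 2342 with a library left out, though it could not be fitted without EY2. Y against N (58) gave 147 by DESeq2, then 603, 1824 and 972, and 1 to 146. E against N (27) gave 57, 214, 60 and 62, and 0 to 34. The YAP class term (21) gave 533 without the filter, 783 without the limits, 63 against cells with 0 of 6 markers and 1 to 239 with a library left out, and the E6-E7 class term (250) gave 791 without the filter, 124 against such cells and 94 to 402. Causes were not tested.

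The YAP share difference reversed to -0.287 points in thinned cells with 4 or more markers and ran from 0.292 to 10.7 with a library left out. That of E6-E7 reversed to -1.61 when thinned and -0.353 at 5 or more markers, and ran from -3.56 to 6.89. Without the upper limits Foxm1 reversed for YAP (-0.34) and Ppbp in the E6-E7 class term (-0.65). Of the values for named genes under alternatives 3427 kept direction and side of the threshold, 384 lost the call, 125 gained it and 2 reversed. No paired analysis was possible because replicate numbers were given in accession order. EY1, with 17 cycling cells, and N2 and E2, with 55 and 63, limit precision.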
